A study of Homo sapiens with 10 samples.

Results

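The regions described here are stretches of open chromatin in DLD-1 colorectal adenocarcinoma cells that lost their ATAC-seq call after both ways of removing the transcription factor GATA6. They number 215 of 120452 merged regions. The intervals of the 6 degron-line peak lists on chromosomes 1 to 22 and X were joined where they touched or overlapped, and a library called a region when 1 of its peaks overlapped it by at least 1 bp. Members were chosen by these calls: both AID_ctrl and both WT libraries called them, and neither AID_aux library and neither KO library did. Their calls in those 8 libraries are therefore a description and carry no test. The AID_wash libraries took no part in the choice, although their peaks helped to draw the region borders.

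All cells were DLD-1, an established line, and each of the 5 groups had 2 libraries. In the line GATA6-AID-IAA7, GATA6 carries an auxin-inducible degron, a tag through which the plant hormone auxin (IAA) sends the protein to destruction. AID_ctrl is this line labelled as auxin at 0 h, with ctrl in its title, and was read as untreated. AID_aux is the line after 12 h of auxin, at 500 µM by the protocol. AID_wash is the line after auxin was removed, for a time labelled 1 without a unit. KO is DLD-1 with GATA6 disrupted by CRISPR/Cas9, and WT is the unedited line. The treatment text speaks of positive clones without their number, and nothing gives the number of KO clones or says whether replicates were separate cultures, so the spread between replicates may be technical. The protein was not measured in these files, and calls at the gene cannot show its removal.

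GATA6 is a zinc-finger transcription factor that binds GATA sequences in promoters and distal enhancers and is needed for the formation and upkeep of endoderm-derived epithelium, the gut included. ATAC-seq marks DNA that a transposase can reach, so a peak that is called with the factor present and not without it is a candidate for chromatin whose accessibility goes with the factor. A degron removes the protein within hours and can be reversed, whereas a knockout line has lived and divided without it.

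The degron lists held 178935 and 190996 peaks in AID_ctrl, 173167 and 198493 in AID_aux and 154150 and 179535 in AID_wash, and KO had 116231 and 130311 windows, against 65939 and 92814 in WT. The lost calls in KO thus stand in the longer lists and the kept calls in WT in the shorter ones. The files give no read counts, so depth is unknown, and a region without a call may be accessible below the calling threshold, the lowest −log10 p in each degron list being just above 5. Gene starts were tabulated for 12 of 20 colorectal epithelial marker genes, and 7 to 9 of these had a peak within 1000 bp of the start in each library, with ELF3, KRT8, CDX2, CLDN7, KRT20, HNF4A and CLDN3 called in all 10 and GPA33, KLF5 and FABP1 in none. Of 12 blood and immune genes with a tabulated start 5 to 7 did, with CD8A, RUNX1, KIT, CD14 and CSF1R in all 10 and TAL1, CD3D, CD79A, NKG7 and GATA1 in none. Of 11 fibroblast and endothelial genes 1 to 4 did, with ACTA2 in all 10 and 7 in none, among them KDR and PDGFRB. The count of 4 was in KO replicate 2 alone, and KO replicate 1 had 3, as did both AID_aux and both AID_wash libraries. A called start shows accessible DNA and not expression.

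The sequence tables used here cover 300 bases around gene starts, and 1 of the 205 members on chromosomes with tabulated starts reaches such a window. It lies at chr15:89655545-89656870 (hg38), inside KIF7, which encodes a kinesin of the primary cilium that regulates Hedgehog signalling, and begins 78 bp upstream of the KIF7 start given by RefSeq (GRCh38.p14; minus strand). The sequence is shown because it is DNA at a gene start whose call was lost in both models. The 250 bases before the start, chr15:89655468-89655717, read 5′ to 3′ on the minus strand, and capitals mark the 173 bases inside the region.
KIF7 upstream: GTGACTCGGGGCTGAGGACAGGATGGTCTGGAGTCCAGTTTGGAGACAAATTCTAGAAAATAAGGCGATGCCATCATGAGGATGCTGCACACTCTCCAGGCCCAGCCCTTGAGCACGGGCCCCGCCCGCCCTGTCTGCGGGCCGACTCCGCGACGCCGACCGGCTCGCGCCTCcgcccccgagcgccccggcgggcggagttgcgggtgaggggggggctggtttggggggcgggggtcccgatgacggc
The GATA letters AGATAA, also with T as the first letter or G as the last, did not occur on either strand in the 300-base window, which runs to 50 bases past the start, while 24.97% of 35116 RefSeq windows of this length hold at least 1 of them. The rest of the region was not searched. The KIF7 region had a −log10 p, the authors' value for its strongest peak, of 14.5 and 19.2 in AID_wash and 31.8 and 36.8 in AID_ctrl.

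Auxin losses, regions called by both AID_ctrl and neither AID_aux library, numbered 2729, or 2.27% of all merged regions. Knockout losses numbered 828, or 0.687%. The 215 shared regions were 7.88% of the auxin losses and 26.0% of the knockout losses. The degron and knockout comparisons share no library, but the overlap is what the rule counts. For comparison, 266 of 68803 regions retained with auxin (0.387%) and 9 of 2974 regions gained with auxin (0.303%) were knockout losses. These sets were not matched for peak strength. The median worse AID_ctrl rank, with 0% the strongest, was 89.3% for auxin losses. It was 30.4% for the regions called by all 8 libraries, which make up 46425 of the 68803 retained. The part of strength in these shares was not tested. Of the other auxin losses, 406 were gained in KO, 177 were called by all WT and KO libraries, 785 by none of them and 1146 by some. A gain in KO was not particular to auxin losses. It was also found at 4943 of the regions retained with auxin and 1102 of those gained with auxin. Among the 48327 regions that both AID_ctrl and both WT libraries called, the 215 were 0.445% and 46425 were called by all 8 libraries.

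A single library decided many memberships. AID_aux replicate 1 alone kept out 113 regions and AID_aux replicate 2 kept out 22, while KO replicate 1 kept out 42 and KO replicate 2 kept out 13. The WT replicate 2 list, the shortest of all, kept out 356 by not calling them, against 17 for WT replicate 1, 40 for AID_ctrl replicate 1 and 42 for AID_ctrl replicate 2. The set therefore held 571 regions without WT replicate 2 and 328 without AID_aux replicate 1. The peaks in AID_aux that kept a region out were weak: their −log10 p had a median of 6.99 in replicate 1, with a range of 5.04 to 17.5, and 5.97 in replicate 2, with a range of 5.07 to 9.42. Just outside the rule, chr1:157497541-157499044 near FCRL5 had a −log10 p of 5.04 in AID_aux replicate 1, against 32.0 and 18.1 in AID_ctrl. Just inside it, a region in CUX1 at chr7:102121585-102121824 had no AID_aux peak and 5.11 and 12.3 in AID_ctrl. The smallest overlap of a member with a WT window was 135 bp.

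**Figure D1:**
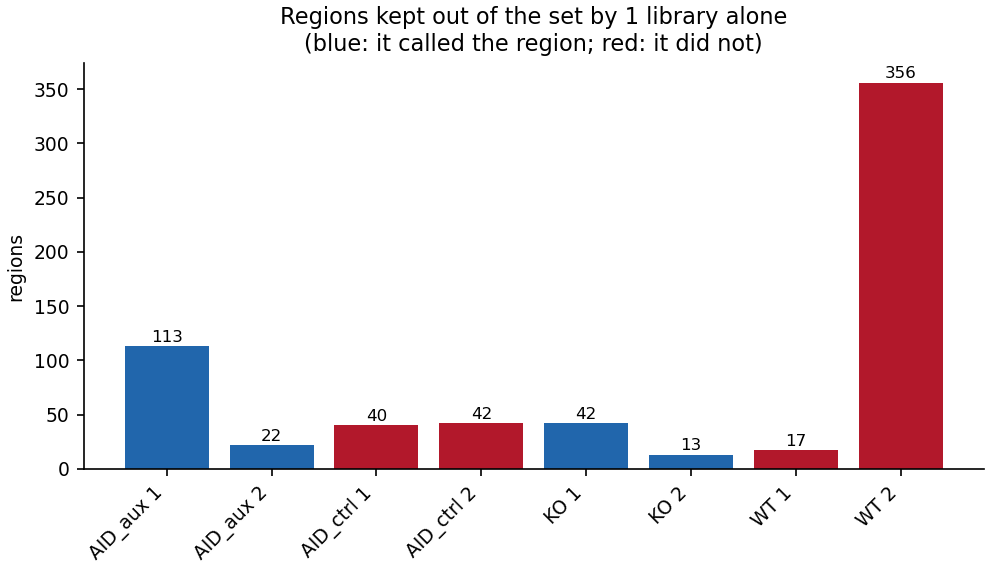
Number of regions (vertical axis) that met every condition but the call of 1 library, shown for the 8 libraries used by the rule. WT replicate 2, which did not call 356 such regions, and AID_aux replicate 1, which called 113, kept out the most.

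Before auxin these were regions of middle to low rank. Each region was ranked in a list by the −log10 p of its strongest peak among all regions that library called, with 0% the strongest. The median member stood at 61.1% in AID_ctrl replicate 1 and 63.8% in replicate 2, its −log10 p being 14.3 and 12.7, where the median over all called regions was 20.05 and 19.1. By the worse of both ranks, 44 members lay in the top 50%, 89 between 50% and 75% and 82 below, and the best stood at 19.0%. The fold enrichment that the authors give per peak had a median of 5.48 and 5.71 among members, against 6.94 and 7.11 over all called regions. Members were 786 bp wide at the median, with a range of 194 to 1847. The other auxin losses were 475 bp wide and regions called by all 8 libraries 1209 bp. A region joins the intervals of every degron list that called it, so width is not independent of the calls that define these sets. A single summit in each AID_ctrl library was found in 83 members (38.6%), in 76.7% of the other auxin losses and in 16.4% of regions called by all 8.

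The rule required peaks of both lines in each region, so their positions within it are given as a description. Of the 215, 214 overlapped a single window of WT replicate 1 and 213 a single window of WT replicate 2. The nearest window centre lay a median of 95 bp (replicate 1) and 71 bp (replicate 2) from the strongest summit of AID_ctrl replicate 1, and the summits of both AID_ctrl libraries lay 22 bp apart. For regions called by all 8 libraries these distances were 97, 84 and 13 bp. Most members lay apart from any AID_aux peak or KO window, whether or not AID_ctrl or WT held it too. The nearest AID_aux peak was 3625 bp away at the median and the nearest KO window 3770 bp. Within 500 bp of an AID_aux peak lay 19 members, and within 500 bp of a KO window 15. A region called by all 8 libraries lay within 6898 bp at the median, against 14385 bp for the other auxin losses and 10091 bp from one such region to the next.

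When auxin was washed out, most of these regions were called again. Both AID_wash libraries called 157 of 215 (73.0%, Wilson 95% interval 66.7 to 78.5), AID_wash replicate 1 alone called 10, replicate 2 alone 34, and neither called 14. Of all merged regions 57.3% were called by both AID_wash libraries, but these include regions that AID_ctrl did not call. Of all regions called by both AID_ctrl libraries, as every member was, both AID_wash libraries called 84.7%. Of those that both WT libraries called too, they called 96.6%, so the members' share was below both. The share was 46.3% (39.1 to 53.7) for the 177 auxin losses that all WT and KO libraries called, 29.0% (27.2 to 30.8) for all auxin losses outside the set, and 97.6% for regions called by all 8 libraries. These intervals cover counting error only, since regions are not replicates, and the differences between sets of regions were not tested. AID_wash replicate 1 has the shortest degron list and called 167 members (77.7%), and replicate 2 called 191 (88.8%). Over the 571 regions found without WT replicate 2, the share called by both AID_wash libraries was 58.0%.

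The share depended on rank before auxin. In the top 50% by the worse AID_ctrl rank, 44 of 44 members were called by both AID_wash libraries. So were 10 of 10 auxin losses kept in WT and KO and 46 of 46 of all other auxin losses. Nearly every region of this rank was: 99.9% of regions called by all 8 libraries and 99.8% of all regions called by both AID_ctrl libraries. Between 50% and 75%, 77 of 89 members were called (86.5%, 77.9 to 92.1), against 76.3% of auxin losses kept in WT and KO, 68.5% of all other auxin losses, 95.1% of regions called by all 8 libraries and 88.8% of all regions called by both AID_ctrl libraries. Below 75%, 36 of 82 members were called (43.9%, 33.7 to 54.7), against 25% of auxin losses kept in WT and KO, 19.9% of all other auxin losses, 70.7% of regions called by all 8 libraries and 46.7% of all regions called by both AID_ctrl libraries. In both lower bands the members' share lay between that of the other auxin losses and that of regions called by all 8 libraries. It was close to that of all regions called by both AID_ctrl libraries, whose share lay inside the members' interval in both bands. The 14 members that neither AID_wash library called were of low rank, with 3 between 50% and 75%, at PGAP1, PSMD1 and near CPEB4, and 11 below. The highest in rank of the 14 lay in PGAP1, which encodes an enzyme that remodels GPI anchors, at chr2:196853441-196854112, with −log10 p of 13.2 and 15.9 in AID_ctrl.

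**Figure D2:**
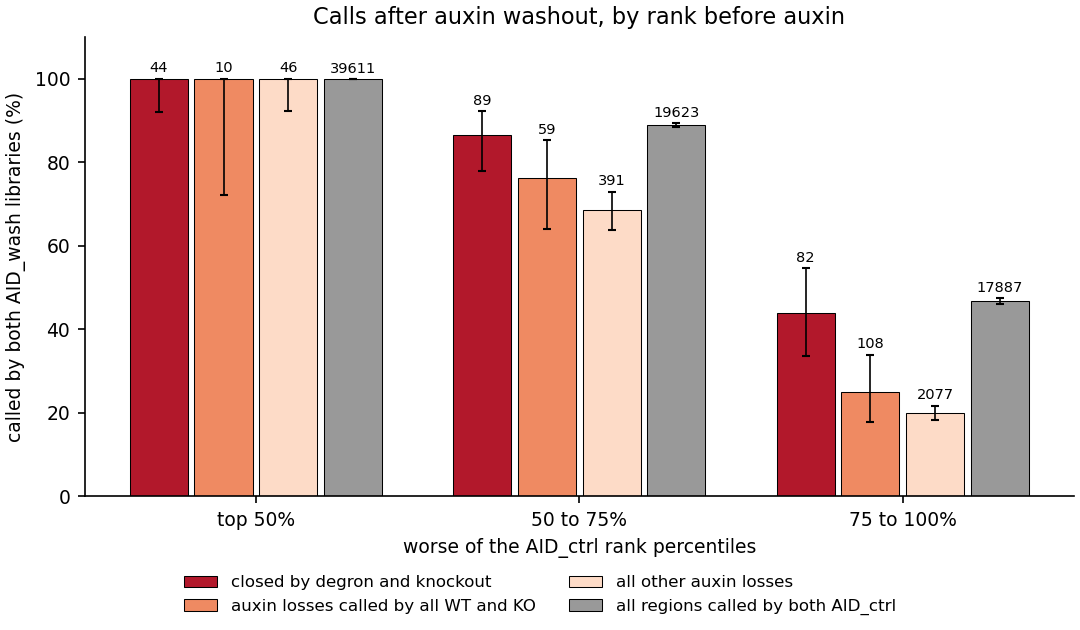
Percentage of regions called by both AID_wash libraries (vertical axis) in 3 bands of the worse AID_ctrl rank (horizontal axis, strongest left), with Wilson 95% intervals and the number of regions above each bar. In the top band the bars are at 100% for the 3 sets of auxin losses and at 99.8% for all regions called by both AID_ctrl libraries. The members (dark red) reach 86.5% and 43.9% in the lower bands, against 88.8% and 46.7% for all regions called by both AID_ctrl libraries.

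The 25 members of highest rank before auxin were all called by both AID_wash libraries. All 25 lay in the top 50% by the worse AID_ctrl rank. In that band both AID_wash libraries called 99.8% of all regions called by both AID_ctrl libraries. Of the 25 members, 12 lay inside a protein-coding gene, 10 within 100000 bp of one, and 3 farther from any. At 13 of the 25 both AID_wash values were listed below both AID_ctrl values, at 12 the groups overlapped, and at 0 both AID_wash values were higher. The 25 were picked for high AID_ctrl values, which by itself favours lower AID_wash values. The same tally was not made over other regions of this rank, so it is no result about the members. The −log10 p values that follow are given for AID_wash and AID_ctrl, since no AID_aux and no KO library held a peak, both WT libraries did, and the WT and KO lists hold no values. Each value belongs to its own list, and lists differ in length, so which values are higher is stated as listed and does not measure accessibility. The gene table gives neither exons nor introns.

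The Hippo pathway, which restrains organ growth through the coactivator YAP1, was met at 3 members. The region in YAP1 itself, chr11:102191727-102193224, was 3 in order of rank and had 16.3 and 22.5 in AID_wash and 46.2 and 44.8 in AID_ctrl. The region in AMOTL1, an angiomotin-family scaffold that binds YAP1, lay at chr11:94706830-94707794, 370 bp inside the upstream end of the gene body and 60562 bp from the gene start tabulated by RefSeq, with 18.2 and 15.6 in AID_wash and 29.0 and 29.2 in AID_ctrl. The third, chr14:50679500-50680271, lay 11579 bp from SAV1, the scaffold of the Hippo kinases, with 12.3 and 11.3 in AID_wash and 23.9 and 22.9 in AID_ctrl. At all 3 regions both AID_wash values lay below both AID_ctrl values. This order was not particular to them, as it was found at 13 of the 25 members of highest rank, YAP1 and AMOTL1 among these. Other regions at these genes were retained with auxin: YAP1 had 8 such regions, AMOTL1 11 and SAV1 3. Over the 23 genes of the Hippo list, 3 of 128 regions called by both AID_ctrl and both WT libraries were members (2.34%), and 121 were called by all 8 libraries. The share was 0.445% over all such regions and 0.957% over all gene lists together. Mesenchymal genes had 2.13% and housekeeping genes 1.75%, each from 1 member, and the Hippo list was not read as standing apart.

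The other members of high rank are given by the role of their nearest gene, a grouping made by hand with no count behind it. The region at chr8:38075956-38077049 lay 16137 bp from EIF4EBP1, a repressor of translation that mTOR inactivates, and had 32.0 and 45.1 in AID_wash and 51.7 and 43.8 in AID_ctrl. The region in ALK, a receptor tyrosine kinase gene, at chr2:29557774-29558701, had 29.2 and 27.1 in AID_wash and 44.9 and 28.7 in AID_ctrl. The region 30812 bp from LBH, a transcription cofactor gene, at chr2:30290258-30291422, had 39.3 and 30.5 in AID_wash and 42.4 and 56.6 in AID_ctrl. At LBH both AID_wash values lay below both AID_ctrl values, while at EIF4EBP1 and ALK the groups overlapped. Near JDP2, a repressor of AP-1 transcription factors, chr14:75374479-75375604 had 35.5 and 31.7 in AID_wash and 34.9 and 53.6 in AID_ctrl. SIPA1L2, of a family that turns off Rap GTPases, lay 52083 bp from chr1:232682304-232682854, which had 30.0 and 62.3 in AID_wash and 49.6 and 40.4 in AID_ctrl.

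Other members lay inside genes of transport or metabolism. SCNN1B encodes a subunit of the epithelial sodium channel, through which the colon takes up sodium, and the region inside it, chr16:23330528-23331933, had 22.6 and 37.2 in AID_wash and 36.3 and 32.2 in AID_ctrl. CACNA2D3 encodes an auxiliary subunit of voltage-gated calcium channels, and its region chr3:54801689-54802512 had 31.5 and 39.6 in AID_wash and 41.5 and 39.8 in AID_ctrl. CYP2R1, which encodes a hydroxylase of vitamin D activation, held chr11:14886155-14887170, with 11.1 and 24.7 in AID_wash and 34.3 and 30.7 in AID_ctrl. In CACNA2D3 and CYP2R1 both AID_wash values lay below both AID_ctrl values. XDH, the enzyme that makes uric acid, held chr2:31360305-31361003, with 22.6 and 48.6 in AID_wash and 41.2 and 28.5 in AID_ctrl. MACROD2, a very long gene for an enzyme that removes ADP-ribose, held chr20:14672747-14673898, with 25.7 and 41.0 in AID_wash and 42.7 and 35.5 in AID_ctrl.

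Matrix and cell surface genes included LAMC1, a laminin chain of the basement membrane, 3871 bp from chr1:183018943-183020156, which had 11.6 and 28.6 in AID_wash and 44.1 and 28.4 in AID_ctrl. THBS4, a thrombospondin gene, held chr5:80075924-80077397, with 22.8 and 17.6 in AID_wash and 28.9 and 29.7 in AID_ctrl. TM4SF1, a membrane protein gene, lay 11166 bp from chr3:149388576-149389054, which had 33.4 and 28.5 in AID_wash and 44.4 and 27.0 in AID_ctrl. This region was close to other peaks, with the nearest 244 bp away in AID_aux and 112 bp away in KO. The region of highest rank of all, chr3:193978129-193979109, lay 91380 bp from LOC102724877 and had 33.0 and 39.9 in AID_wash and 71.2 and 50.04 in AID_ctrl.

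The remaining named members lay outside but nearest to ZC3H12C (order 8), FIG4 (11) and CRISP1 (17), and inside CUEDC1 (21) and CHMP3 (25). Their −log10 p was 13.3 to 36.9 in AID_wash and 27.2 to 42.4 in AID_ctrl. Those with no protein-coding gene within 100000 bp were chr4:38273311-38274156, chr5:99590640-99591561 and chr6:105569253-105570870. The one on chromosome 5 was the most isolated of these: the nearest AID_aux peak was 454601 bp away and the nearest KO window 190386 bp. It had 25.01 and 28.8 in AID_wash and 37.6 and 48.2 in AID_ctrl.

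**Figure D3:**
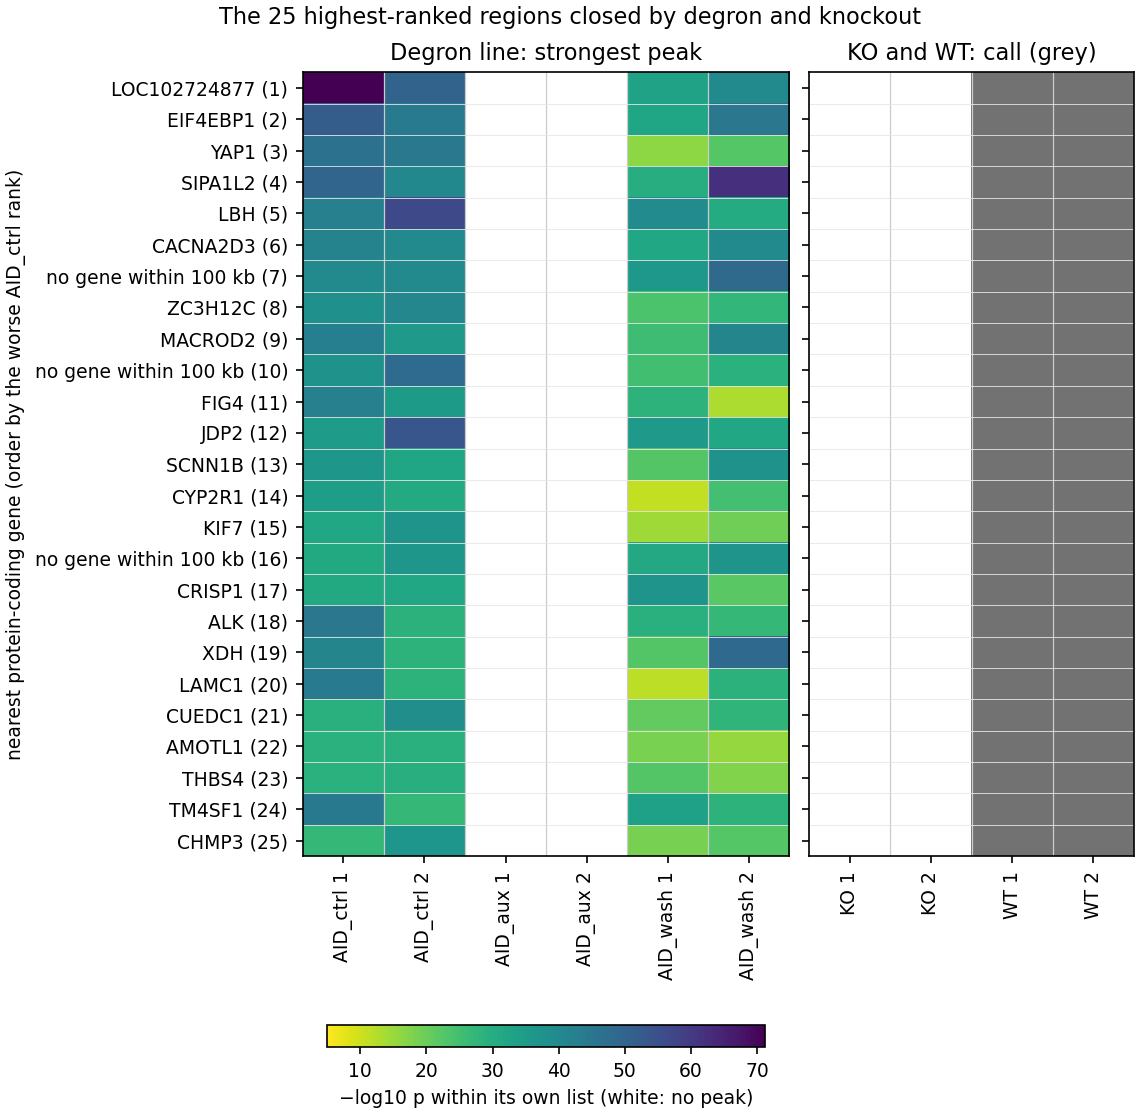
The 25 members of highest rank (rows, by nearest gene) in the 10 libraries (columns). Colour gives the −log10 p of the strongest peak within its own degron list, white no peak, and grey a called window in KO or WT. The AID_aux and KO columns are empty by the rule. All 25 regions have a peak in both AID_wash libraries, as do 99.8% of all regions called by both AID_ctrl libraries in the top 50%.

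The gene lists for gut, signalling and cell-type biology, 17 lists with 353 different genes, took in 15 members. These were 0.957% of the 1567 regions at list genes that both AID_ctrl and both WT libraries called, and 1494 of the 1567 were called by all 8 libraries. Over all 48327 regions that both AID_ctrl and both WT libraries called, at list genes or not, the share was 0.445%. WNT targets and TCF/LEF factors had 0 members of 139 such regions, goblet and enteroendocrine genes 0 of 32, NF-kB and inflammatory genes 0 of 66, aryl hydrocarbon receptor genes 0 of 48, fibroblast and endothelial markers 0 of 71 and colorectal epithelial identity genes 0 of 114. EGFR-RAS genes had 2 of 153, cell adhesion and matrix genes 2 of 224, intestinal transcription factors 1 of 169 and the BMP and TGF-beta pathway 1 of 171. Mesenchymal genes had 1 of 47, housekeeping genes 1 of 57 and genes of chromatin looping and remodelling 1 of 58. Enterocyte and colonocyte genes had 1 of 60, and AP-1 and early response genes 1 of 86. With so few members per list, no list was read as standing apart. Blood and immune markers had 1 of 53, which was the weakly called region 86489 bp from KIT (order 205).

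Among transcription factors, the region 25941 bp from FOSL2, a subunit of AP-1, lay at chr2:28366549-28367286 and had 20.3 and 21.0 in AID_wash and 38.9 and 16.8 in AID_ctrl. At FOSL2 both AID_wash values lay between the AID_ctrl values. EPHA2, an ephrin receptor, lay 16153 bp from chr1:16171684-16172761, which had 15.9 and 11.4 in AID_wash and 24.9 and 13.6 in AID_ctrl. BMPR2, the type II receptor for bone morphogenetic proteins, held chr2:202529887-202530629, with 7.56 and 13.7 in AID_wash and 24.9 and 14.2 in AID_ctrl.

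Adhesion genes were represented by TNC, encoding the matrix protein tenascin C, 34300 bp from its region, with 14.1 and 8.91 in AID_wash and 16.7 and 16.5 in AID_ctrl. The region in ITGA2, a collagen-binding integrin subunit, had 8.76 and 7.17 in AID_wash and 7.88 and 12.3 in AID_ctrl. At TNC both AID_wash values lay below both AID_ctrl values, while at ITGA2 the groups overlapped. Other list genes with 1 member each included CA4, a carbonic anhydrase of colonocytes (10.6 and 11.9 in AID_wash, 18.03 and 17.1 in AID_ctrl), STAG1, a cohesin subunit (10.6 and 22.4, against 18.3 and 16.9), and VIM, an intermediate filament gene of mesenchymal cells (9.55 and 13.7, against 16.5 and 13.5).

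The 178 members within 100000 bp of a protein-coding gene were spread over 174 genes, of which 4 had 2 members and none had more. ADORA2B, a receptor for adenosine, held a pair 20021 bp apart. Its first region, chr17:15951854-15952489, had 15.3 and 16.0 in AID_wash and 13.1 and 11.9 in AID_ctrl, and its second, chr17:15972511-15972920, had 7.21 and no peak in AID_wash and 19.1 and 7.49 in AID_ctrl. At the first both AID_wash values were above both AID_ctrl values, and 15 other ADORA2B regions were retained with auxin. BPNT2, a Golgi phosphatase gene, had a pair 31373 bp apart, while the pairs at MACROD2 and at PDE4D, a cyclic AMP phosphodiesterase, were over 100000 bp apart. PDE4D had 2 members, 28 regions retained with auxin and 10 gained in KO. Of the 174 genes, 165 also had at least 1 region called by all 8 libraries, and at 9 the members were the only regions that both AID_ctrl and both WT libraries called.

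Along the chromosomes the members stood mostly alone. In the whole set 2 neighbouring pairs lay within 100000 bp, those at ADORA2B and BPNT2, and 23 pairs within 1000000 bp. As a share of the regions called by both AID_ctrl and both WT libraries, members made up 0.729% on chromosome 4, 0.685% on chromosome 5 and 0.658% on chromosome 2, and 0.105% on chromosome 19 and 0.0944% on chromosome 22, around 0.445% in all. The counts behind these shares were 15, 17 and 26 regions on the first and 2 and 1 on the last. Intervals of single chromosomes were wide: those of chromosomes 7, 10 and 19 ended below 0.445% and that of chromosome 2 began above it, at 0.449%. The member nearest to GATA6 on chromosome 18 lay at chr18:22342618-22342981, 140090 bp beyond the end of the gene, with 13.9 and 13.7 in AID_wash and 16.0 and 26.8 in AID_ctrl, and CTAGE1 was the nearer gene.

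**Figure D4:**
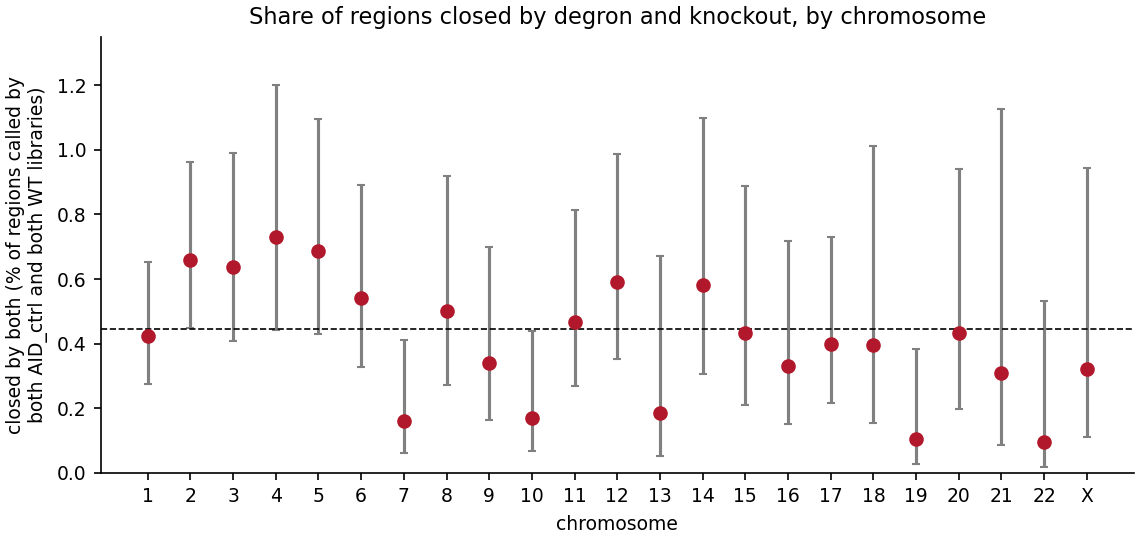
Members as a percentage of the regions that both AID_ctrl and both WT libraries called (vertical axis), by chromosome, with Wilson 95% intervals that cover counting error only. The dashed line marks 0.445%, the value for all chromosomes, and every interval but those of chromosomes 2, 7, 10 and 19 includes it.

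Members lay away from gene ends. Within 1000 bp of either end of a protein-coding gene lay 2 of 215 (0.930%, Wilson 95% interval 0.255 to 3.33), against 4.38% (3.64 to 5.25) of the other auxin losses, 6.02% of knockout losses that auxin left called, 24.4% of regions called by all 8 libraries and 13.2% of all regions. These 2 were the AMOTL1 region and a region 976 bp from the far end of LIPG, the endothelial lipase gene. The KIF7 region is not among them, since the KIF7 gene body runs 6179 bp beyond it, past the tabulated start. When 3000 bp counted as near, the share of members was 6.51%, against 11.2% of the other auxin losses and 30.0% of regions called by all 8. The median distance to a gene end was 38015 bp, against 31959 bp for the other auxin losses and 14367 bp for regions called by all 8. Inside a gene body lay 50.2% of members, 50.2% of the other auxin losses and 55.1% of regions called by all 8. Members ranked lower before auxin than regions called by all 8, with a median worse rank of 66.7% against 30.4%, and the part of rank in these position differences was not tested.

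**Figure D5:**
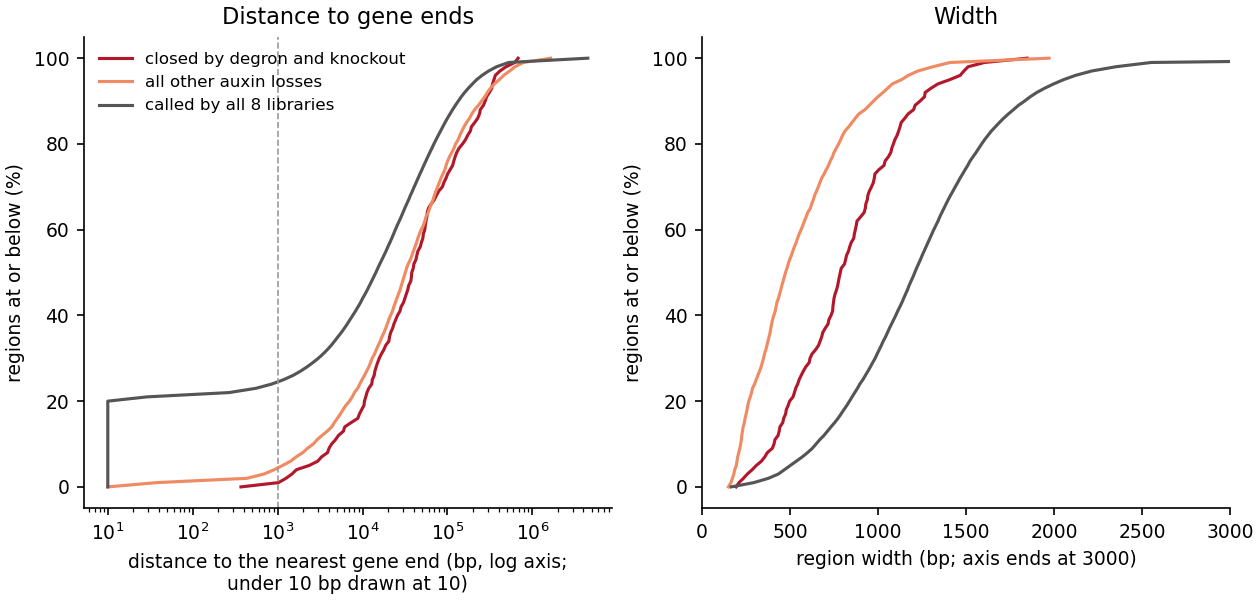
Cumulative percentage of regions (vertical axes) by distance to the nearest end of a protein-coding gene (left, log axis, dashed line at 1000 bp) and by width (right), for members, all other auxin losses and regions called by all 8 libraries. Members lie farther from gene ends than the other auxin losses over the lower part of the curve, up to the median. In width they lie between both sets, with a median of 786 bp. Width is not independent of the calls that define the sets.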

How the data were processed

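ATAC-seq peak lists of 10 DLD-1 libraries were used as deposited. The submitters' processing notes list hg38 and the tools MACS2 2.1.1, Picard, Bowtie2 2.4.2 and Trim Galore 0.6.10. How these were set, whether cut sites were shifted and whether blacklisted DNA was removed is not given in the sources used here. Each library has its own list, with no pooling. A line of a deposited degron list holds 1 summit and its interval, and neighbouring summits may repeat that interval. Per peak the authors deposited a score (10 times the −log10 p, at most 1000), a fold enrichment ratio, a −log10 p-value and a −log10 q-value, used only within a list. The deposited WT and KO lists hold windows of 500 bp without values.

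Python 3.11.15, pandas 2.3.3, numpy 2.4.6 and scipy 1.17.1 were used. Code for regions and calls was tested on simulated data and against bedtools 2.31.1. Regions were assigned to the protein-coding gene body nearest to their midpoint within 100000 bp (RefSeq, GRCh38.p14; all 353 list genes matched). No test across regions was made. Members and gene lists were chosen with earlier results of these data known. Named were the 25 members of highest rank, by the worse AID_ctrl rank, every gene with 2 members and every list gene with 1. Some of these are not reported here. A planned search for motifs around summits was not run, since no genome sequence was used here. The alternatives were other overlap rules, a stricter peak threshold, equal list lengths, regions merged over 10 lists, and each library left out.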

Additional observations from a re-analysis of the deposited data

How the results depend on the processing

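The set of 215 regions held 191 to 259 regions under 6 alternatives: peaks lying at least 50% in a region or covering 50% of it, an overlap of at least 100 bp, regions merged over all 10 lists, degron peaks at a −log10 q of 5 or more, equal degron list lengths, and no AID_aux or KO peak within 500 bp. At a −log10 q of 5 or more, 166 of the 215 overlapped 1 of the 259 regions then found. Limited to the top 50% of both AID_ctrl lists it held 44. With a library left out it held 228 to 571, the highest without WT replicate 2. The share called by both AID_wash libraries, 73.0%, was 82.7% with equal list lengths and 100% in the top 50%, and 58.0% to 88.8% with a library left out, the lowest without WT replicate 2 and the highest without AID_wash replicate 1, when a single library decides. It was 69.5% to 74.9% under the other 5. The share near a gene end, 0.930%, was 6.51% when 3000 bp counted as near, 0.772% to 2.27% under the other 7 settings and 0.844% to 1.95% with a library left out. The causes were not tested. No paired analysis was possible because the counts come from no test. Taken by replicate number, 1020 regions were lost in replicate 1 and 611 in replicate 2 of both models, and those lost in both are the same 215. The GATA motif share and its alternatives were not run. Depth is unknown, so a lost call does not measure how far accessibility fell.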

Other observations

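The regions below were chosen after their values were seen, for genes of epithelial surface and metabolism, and are given as values only. PIGR, which encodes the receptor that carries antibodies across gut epithelium, held chr1:206941620-206942598, with a −log10 p of 11.7 and 10.0 in AID_wash and 18.9 and 15.8 in AID_ctrl. CD24, a surface glycoprotein gene, lay 58279 bp from chr6:106911122-106911983, which had 18.3 and 21.4 in AID_wash and 19.7 and 17.6 in AID_ctrl. HK2, a hexokinase gene of glycolysis, held chr2:74840103-74840655, with 25.6 and 25.2 in AID_wash and 23.8 and 18.8 in AID_ctrl, so that both AID_wash values were above both AID_ctrl values. TSPAN8, a tetraspanin gene of gut epithelium, lay 25317 bp from chr12:71183077-71183555, which AID_wash replicate 1 did not call and where AID_wash replicate 2 had 5.61, against 12.2 and 16.9 in AID_ctrl.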
